A study of Oryza sativa with 12 samples.

Results

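On Affymetrix rice genome arrays hybridised with leaf RNA from field-grown rice, 111 of 57258 probe sets were bright in the cultivar Azucena and dark in the cultivar Bala. The members were selected on their deposited signal, a linear fluorescence intensity, which had to be above 200 on all 6 Azucena arrays and below 30 on all 6 Bala arrays. The cultivar difference of these probe sets therefore follows from how they were chosen, and it is described here without a test. Of the 111 probe sets, 59 pair with a single gene in the platform's gene table and 52 are not listed there. The 59 stand for 54 of the 17905 genes that have a probe set of their own on the array, and 5 of the 54 had 2 such probe sets. Few carry a name: HCT3, an acyltransferase of the BAHD family named after hydroxycinnamoyl transferase, CSLE1, a cellulose synthase-like protein, and ATG8D, a ubiquitin-like protein of autophagy. The other genes have only a locus number in the tables used, which hold no descriptions, so no role is given for them.

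A probe set on this type of array is a group of short oligonucleotides designed to 1 transcript sequence. A short probe loses signal when the transcript differs from it by a few bases, so a dark probe set can reflect a transcript that is not made, a gene that is not present, or a transcript whose sequence differs from the probes. A single probe set cannot tell these apart. Azucena is a tropical japonica type and Bala an indica type, which are the main subspecies of cultivated rice and differ widely in sequence. Gene presence and absence between them is well known, in particular among clustered disease resistance genes. Other probe sets of the same gene, and genes that lie beside it, are described below for that reason. Some of those probe sets carry the member's name apart from its ending, and they can share its probes.

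The study asked how rice leaves respond to drought in the field in both cultivars. Plants stood in flooded plots, and on day 59 after sowing the water was withheld from the drought plots for 24 days, whereas control plots were kept flooded. Sampling was on day 83 and took the middle of the leaf just below the youngest one that had fully expanded, frozen after 4 cm had been cut from each end. The 4 groups were Azucena under drought, Azucena control, Bala under drought and Bala control, with 3 biological replicates and 3 arrays each. Each replicate was a bag of leaves pooled from several plants of 1 field block. More plots per block went into a drought bag than into a control bag. The p-values below measure the spread between such bags, pooled over all 4 groups. For members this spread includes that of the dark Bala arrays. In leaf RNA of this kind, fewer cells of a type and less RNA per cell cannot be told apart.

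The 12 arrays had median signals of 9.6 to 12.4 over all 57381 probe sets. Background was taken as the brightest of 33 negative control probe sets on an array, and it lay at 19.6 to 28.3 on Azucena arrays and at 13.4 to 24.2 on Bala arrays. Of the leaf mesophyll markers measured, 3 of 4 were above 200 on all arrays: RBCS, the small subunit of Rubisco, had 4131.4 to 8602.3, and the light-harvesting protein gene CAB2R had 6455 to 10596.7, while the chlorophyll synthesis gene PORA had 161.2 to 1055. The anther genes OSC6 and TDR reached at most 10.5 on any array.

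In Azucena the 111 probe sets had mean signals of 219.7 to 3822 over the 6 arrays, with a median of 507.2. Of them, 18 were above 1000 and 35 below 400. In Bala their means ran between 0.567 and 23.3, with a median of 5.05, and 54 were below 5. On all 6 Bala arrays 84 of the 111 were at or below background, 27 were above it on some, and 0 were above it on all 6. Set against background where Bala lay under it, the members were at least 12.1 to 194 times brighter in Azucena, with a median bound of 26.8. These bounds are ratios of geometric means over arrays. In Bala the median of the members' group means was 5.37 under drought and 5.13 in control.

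**Figure D1:**
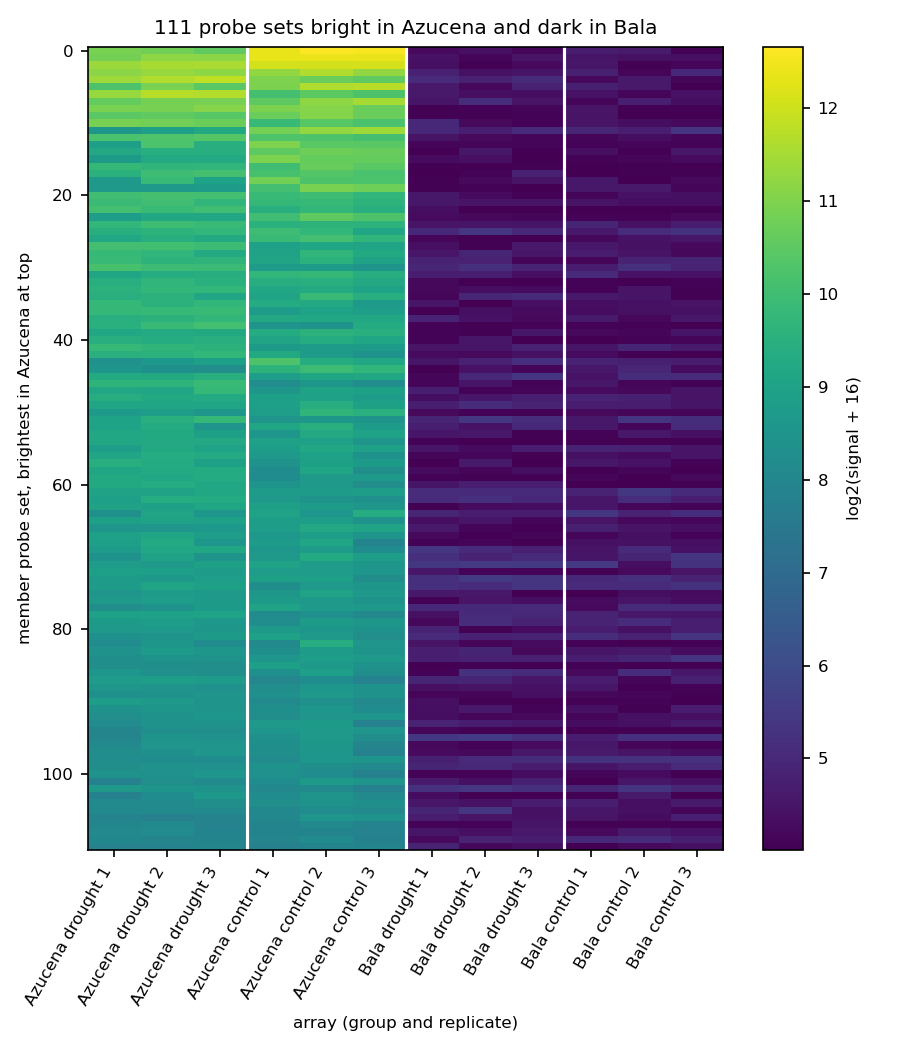
Signal of the 111 probe sets, as log2(signal + 16), on each of the 12 arrays, with the probe sets sorted by their mean in Azucena. The Azucena columns, drought left of control, are bright throughout and the Bala columns are dark throughout, as the choice of probe sets requires.

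Most probe sets bright in Azucena were bright in Bala too. Among the 7886 probe sets above 200 on all Azucena arrays, the highest Bala signal was below 30 in 111 (1.41%), from 30 to 60 in 22 (0.279%), from 60 to 100 in 31 (0.393%), from 100 to 200 in 96 (1.22%), and 200 or more in 7626 (96.7%). Counted per doubling of the signal, 36 had a highest Bala signal of 8 to 16, 37 of 16 to 32, 22 of 32 to 64, 43 of 64 to 128 and 210 of 128 to 256, with no empty range between dark and bright. The mirror class was smaller: of 7366 probe sets above 200 on all Bala arrays, 18 (0.244%) were below 30 on all Azucena arrays. The part of the sequences chosen for the array in this difference was not tested. Near the thresholds, the member of LOC4350347 had a lowest Azucena signal of 204.4 and an unlisted one 201.6, while the probe set of LOC4351178, at 195.6, and an unlisted one, at 196.9, were left out. The member of LOC4325426 had a highest Bala signal of 29.3 and an unlisted one 29.7, while the probe set of LOC4352505, at 31, and an unlisted one, at 30.3, were left out.

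**Figure D2:**
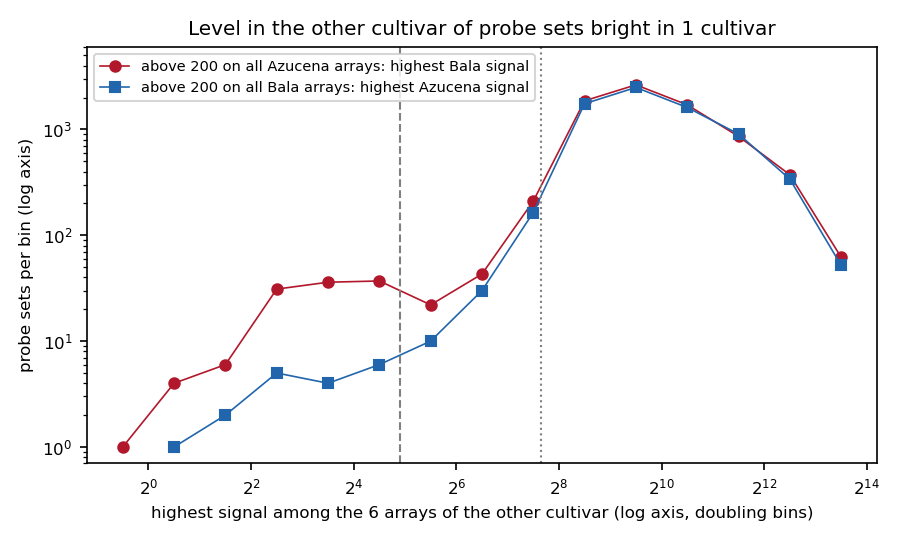
Number of probe sets (log axis) against the highest signal in the opposite cultivar (log axis, doubling bins), for probe sets above 200 on all Azucena arrays and for those above 200 on all Bala arrays. Most probe sets bright in 1 cultivar are bright in the other, and the group with a highest signal below 30 holds 111 probe sets for Azucena and 18 for Bala.

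The brightest member was a probe set of LOC4328727 on chromosome 2. Its signal was 1937.3, 1791 and 1480 in Azucena drought, 5234, 6456.1 and 6033.5 in Azucena control, 2.9, 4.5 and 1.9 in Bala drought, and 10.3, 9.2 and 0.6 in Bala control. Azucena was at least 176 times brighter, and every Bala array lay under its background. The second brightest member is not in the gene table. It had 1822.4, 2327.5 and 2263.9 in Azucena drought, 5343.5, 5475.3 and 5315.2 in Azucena control, and at most 6.6 in Bala, and it was lower under drought (log2 -1.33, limma adjusted p = 3.6e-06). The next one belonged to LOC4343987 on chromosome 7, with 2630.2, 2968.5 and 3019 in Azucena drought, 4249.3, 4301.4 and 4416.6 in Azucena control, 4.6, 0.8 and 2.7 in Bala drought, and 7.1, 0.9 and 2 in Bala control. Its bound, 194 times, was the highest among all members, followed by 187 times for that unlisted member. Among the other bright members with a gene, the bound was 127 times for LOC4340120, 111 times for LOC4328793 and 107 times for both LOC4352852 and 1 probe set of LOC4350213.

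The named genes were dimmer. HCT3, on chromosome 6, had 528.4, 543.7 and 526.4 in Azucena drought and 456.5, 662.5 and 471.2 in Azucena control, against 10.8, 19.1 and 13.4 in Bala drought and 9.7, 9.8 and 6.5 in Bala control. ATG8D, on chromosome 11, had 296.4, 335.1 and 408.3 in Azucena drought and 499.4, 387 and 387.9 in Azucena control, against 16, 15.7 and 16.8 in Bala drought and 2.7, 17.6 and 17.5 in Bala control. For both, drought and control arrays overlapped in Azucena, and limma did not call the drought response (log2 0.03, adjusted p = 0.93 for HCT3 and log2 -0.28, adjusted p = 0.37 for ATG8D). CSLE1, on chromosome 9, was the one named gene with a called drought response, given below with its values.

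Some features differed in frequency between members and the other probe sets bright in Azucena. Among members 46.8% were not in the platform's gene table, against 15% of all probe sets above 200 on all Azucena arrays. Put the other way, 4.39% of the unlisted bright probe sets were members, against 0.886% of those with 1 gene. Probe sets with the x suffix, which by design may also match other sequences, made up 15.3% of members and 10.8% of bright probe sets. The a suffix, used for probes shared by transcripts of 1 gene, stood on 9.01% and 8.22%, and the s suffix, used for probes shared between transcripts, on 7.21% and 8.42%. In the RefSeq annotation of the assembly ASM3414082v1, 52 of the 54 member genes were protein coding. A single transcript was annotated for 51.9% of member genes, against 71.6% of the 6158 genes bright in Azucena. Median gene span was 3425.5 bases in member genes and 3716.5 bases in bright genes.

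Member genes lay on all 12 chromosomes. They made up 0.877% of the genes bright in Azucena (54 of 6158). The share was highest on chromosome 11, with 8 of 237 genes (3.38%), followed by chromosome 12 with 5 of 291 (1.72%) and chromosome 7 with 6 of 463 (1.3%). It was lowest on chromosome 5, with 1 of 517 (0.193%), and chromosome 8, with 1 of 419 (0.239%). Chromosome 2 held the highest number, 9 of 805 genes (1.12%). These shares are a description without a test.

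Drought changed many members in Azucena in either direction. The rule sets only a lower limit on the Azucena signal and does not use the difference between drought and control, so this response was tested, with limma over all 33476 probe sets with enough signal, on log2(signal + 16), at an adjusted p of 0.05. All 111 members were among the probe sets tested. Of them, 23 were higher under drought (20.7%), 17 were lower (15.3%) and 71 were not called. With a pseudocount of 1 these counts were 5 and 9, and with the Azucena arrays alone 28 and 18 at either pseudocount; without the third Azucena control array 14 were higher. Over all probe sets tested 14.2% were called higher and 13.2% lower, and over the probe sets above 200 on all Azucena arrays 17.5% and 16.9%. Counted either way, 36% of members were called, against 27.5% of all probe sets tested and 34.5% of bright ones. The members' shares were near those of other bright probe sets, and the median change was 0.05 (log2) in members and 0.02 in bright probe sets. The Azucena drought arrays all lay on one side of the control arrays in 64 of 111 members (57.7%), against 41.8% of all probe sets tested and 53.6% of bright ones. Changes in members ran between -2.26 and 1.35. The summed signal of 4 leaf mesophyll markers was 18621.7 in Azucena drought and 23913.8 in Azucena control. That of root genes was 1880.8 under drought and 3275.6 in control. Most of it came from LOC4340386, a locus with the symbol RSS1 (1245.4 and 2270.3), which was at 1080.6 or more on every array. The other root genes went both ways, with PHT1-8 at 302.4 and 816.8 but LSI1 at 303.6 and 172.6. Genes of dividing cells summed to 204.67 and 312, and secondary wall genes to 84.23 and 60.27. Seed storage genes summed to 105.07 and 170.83, drought before control in each case. The anther genes summed to 9.933 under drought and 12.333 in control. The part of these shifts in the members' changes was not tested.

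**Figure D3:**
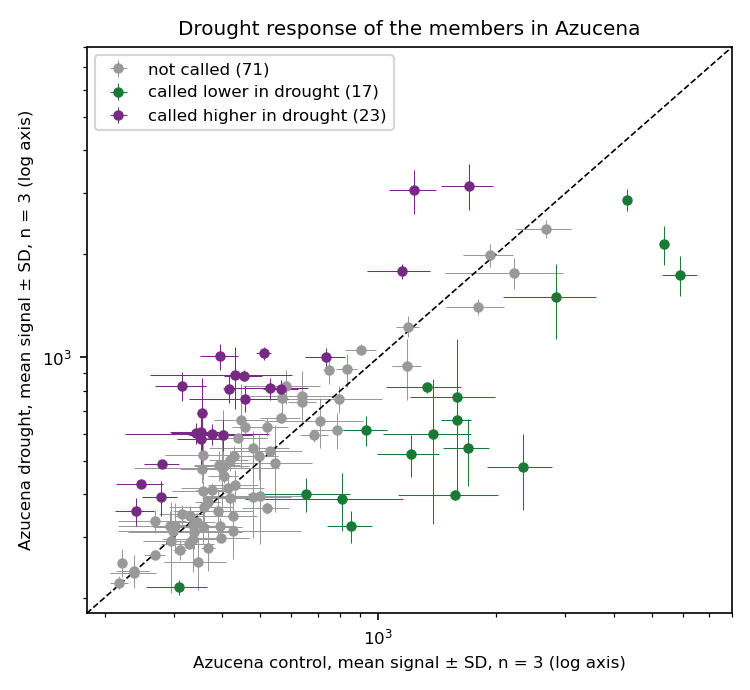
Mean signal of each of the 111 members in Azucena drought against its mean in Azucena control (both log axes, bars are the SD of 3 arrays). The 17 members called lower lie below the diagonal and the 23 called higher above it, with log2 changes down to -2.26 and up to 1.35.

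LOC4335436, on chromosome 4, fell most under drought. Its signal was 366.5, 471.5 and 602.4 in Azucena drought and 1850.5, 2457.2 and 2707.2 in Azucena control (log2 -2.26, SE 0.21, limma adjusted p = 3.5e-07). The arrays of the groups were far apart, and Bala stayed between 11 and 24 in both conditions. LOC4346832, on chromosome 9, had 388.5, 391.2 and 414.1 in Azucena drought and 1059.7, 1929.9 and 1720.9 in Azucena control (log2 -1.89, SE 0.2, adjusted p = 2.4e-06). LOC4328727, the brightest member, fell by 1.76 on the log2 scale (SE 0.18, adjusted p = 1.6e-06) with the array values given above. LOC4336804, on chromosome 4, had 407.8, 614.2 and 608.6 in Azucena drought and 1962.6, 1554.3 and 1560.1 in Azucena control (log2 -1.63, adjusted p = 3.7e-06). In each of these genes every drought array was below every control array.

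Falls of a smaller size were measured for LOC4344104 (log2 -1.35, adjusted p = 4.1e-05), LOC4343986 (-1.25, 8.2e-05) and LOC4350483 (-1.18, 4.4e-05). LOC4342731, on chromosome 7, was measured by 2 members that moved together. The first had 390.4, 898.7 and 503 in Azucena drought and 1776.4, 1185.4 and 1163.8 in Azucena control (log2 -1.24, adjusted p = 0.0015), and the second changed by -1.11 (adjusted p = 0.0028). In both, the second drought array was the highest of its group and the first control array the highest of the other, without overlap.

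LOC4350213, on chromosome 11, rose most, and both of its members did so. One had 785.2, 774.7 and 921 in Azucena drought and 288.1, 369.1 and 288.8 in Azucena control (log2 1.35, SE 0.18, adjusted p = 3e-05). The other had 2549.4, 3408 and 3237.2 in Azucena drought and 1088.5, 1415.6 and 1202 in Azucena control (log2 1.3, SE 0.17, adjusted p = 1.7e-05). Both probe sets put the gene at about the same rise although their signals differ, and neither exceeded 8.2 on any Bala array. LOC4341416, on chromosome 6, had 706.9, 901.9 and 1061.1 in Azucena drought and 340, 328.2 and 625.4 in Azucena control (log2 1.06, adjusted p = 0.0013). LOC4340120, also on chromosome 6, had 2700.8, 3119.9 and 3666.2 in Azucena drought and 1996.7, 1618.2 and 1493.5 in Azucena control (log2 0.89, adjusted p = 0.0011).

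CSLE1, of a protein family that builds cell wall polysaccharides, had 465.4, 651 and 626.1 in Azucena drought and 400.8, 343.3 and 310.6 in Azucena control (log2 0.69, SE 0.19, adjusted p = 0.0098). The groups did not overlap, but the call was lost without the second Azucena drought array (adjusted p = 0.051) and with a pseudocount of 1 (adjusted p = 0.065). In Bala CSLE1 had 16.8, 19.9 and 16.6 under drought and 7.4, 18.9 and 10.8 in control, at or below background on 5 of 6 arrays. Rises were also called for LOC4331894 (0.9, adjusted p = 0.005) and for both members of LOC4350020 (0.77, adjusted p = 0.005 and 0.56, adjusted p = 0.02). The call for LOC4349255 (0.64, adjusted p = 0.031) was lost without either of 2 control arrays or any 1 of the drought arrays, with adjusted p of 0.055 to 0.13. It was also lost with a pseudocount of 1 (adjusted p = 0.41) and without the filter on low values (adjusted p = 0.062). The second member of that gene was not called (0.55, adjusted p = 0.069).

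Members of 1 gene did not always give the same response. For LOC4327927, on chromosome 1, one member had 557.3, 680.8 and 605.2 in Azucena drought and 927.8, 1053.7 and 814.9 in Azucena control (log2 -0.59, adjusted p = 0.012). The other had 254.8, 276.1 and 228.1 in Azucena drought and 223.1, 226.5 and 215.9 in Azucena control (log2 0.17, adjusted p = 0.49). The first fell and the second was not called, and which transcripts each one reads was not tested.

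Other probe sets of the member genes were mostly higher in Azucena too. The array carries 39 of them for 22 of the 54 genes, and 32 genes have none, so for these the difference rests on members alone. Of the 39, 34 had enough signal to be tested, and limma called 26 higher in Azucena (76.5%), 3 lower (8.82%) and 5 neither way. Those not tested were below 30 in both cultivars. Signal above the array median on at least 3 arrays was needed for the test. Some passed through Azucena arrays alone, such as every other probe set of LOC4328727, at most 6.5 in Bala. Such probe sets could hardly be called lower in Azucena, so the filter favours calls of higher among these 34. Over all probe sets tested 19.1% were called higher and 13.3% lower, or 32.5% either way. The median difference, Azucena minus Bala on the log2(signal + 16) scale, was 1.02 in these probe sets and 0.02 over all. Azucena and Bala arrays did not overlap in 21 of the 26 called higher and 1 of the 3 called lower, against 10.9% of all probe sets tested. Probe sets of a gene read the same RNA and can share probes, so they are not independent samples. Where Bala is at background, the log2 difference depends on the 16 added and understates the ratio.

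**Figure D4:**
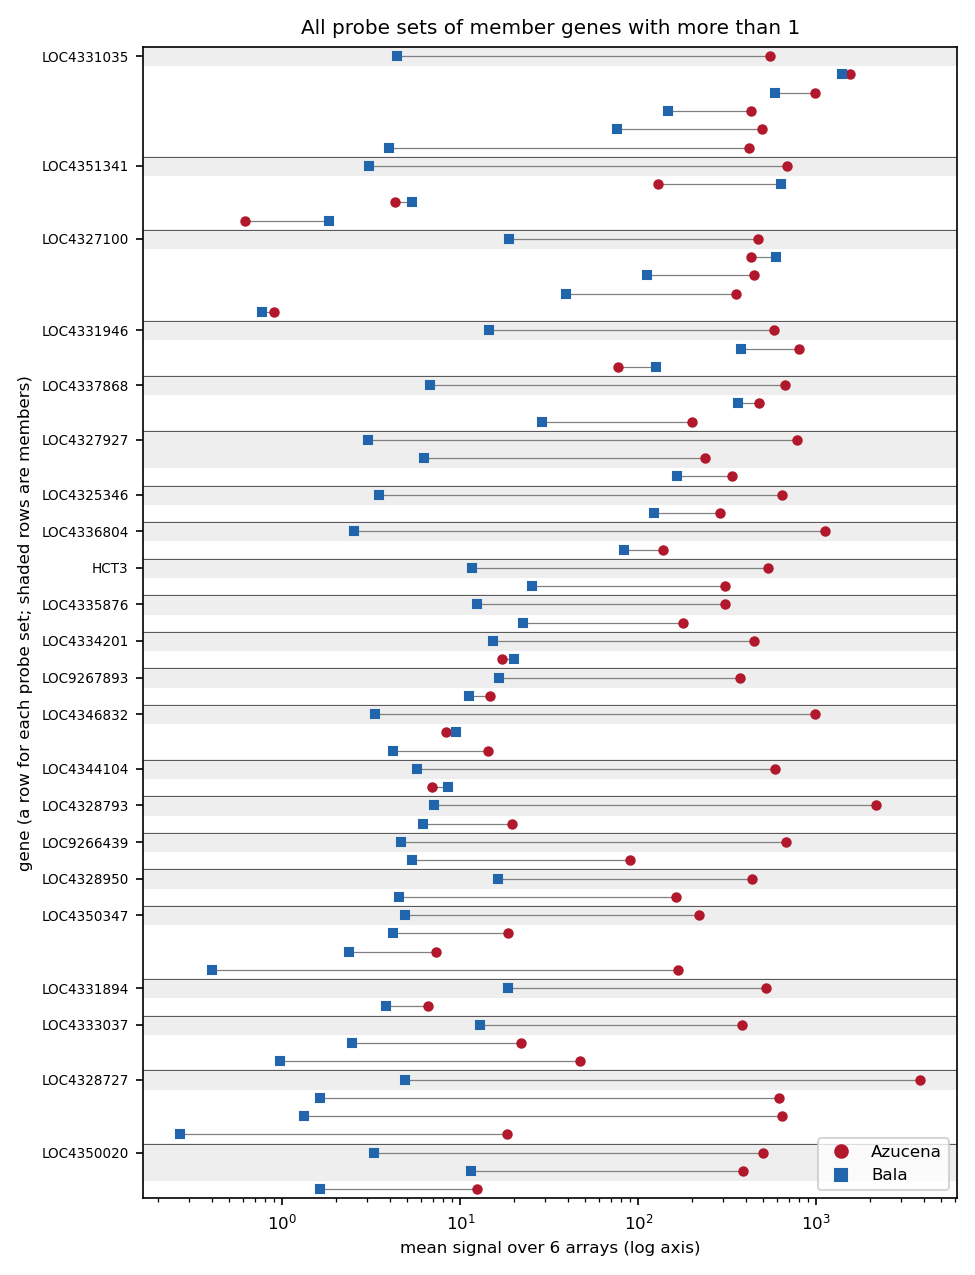
Mean signal over 6 arrays (log axis) in Azucena and in Bala for each probe set of the 22 member genes that also have other probe sets, with members shaded. In most genes the unshaded probe sets lie higher in Azucena too, while LOC4331035, LOC4327100, LOC4331946, LOC4337868 and LOC4351341 hold probe sets above 200 on all Bala arrays.

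In 11 of the 39, Bala was below 30 on all its arrays and Azucena was at 30 or more on at least 1, although none of the 11 met the threshold of 200 on all Azucena arrays. The other probe set of HCT3 was below 30 on 5 of 6 Bala arrays: 220.9, 317.9 and 227.1 in Azucena drought and 333.8, 420.9 and 308.3 in Azucena control, against 20.8 to 31.9 in Bala (log2 2.93, SE 0.13, adjusted p = 5.3e-12). LOC4328727 had 3 others, all higher in Azucena (4.77, 4.01 and 0.87), and none exceeded 6.5 in Bala. Further genes with 1 other probe set that was much higher in Azucena were LOC4328950 (3.12) and LOC4335876 (2.34), and LOC4350347 had 1 of 3 at 3.48. These probe sets of HCT3, LOC4328950, LOC4335876 and LOC4350347 carry the member's name apart from its ending. They can share its probes, so they are not a separate check of the member. The rest of those of LOC4350347, with another number in their name, were below 30 in both cultivars. In 7 genes every other probe set was dark in Bala and at least 1 was not dark in Azucena. In 5 genes every other probe set listed for the gene was below 30 in both cultivars. There a difference is measured near background: LOC4350020 (0.69, adjusted p = 0.0003) and LOC4328793 (0.69, adjusted p = 0.0095) are counted among the 26 called higher on such probe sets. LOC4344104, also among the 5, shares its name stem with unlisted probe sets that were bright in Bala, given below.

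The interaction term of the same fit (Azucena response minus Bala response) was called in 6 of the 34 other probe sets, 2 higher and 4 lower. Over all probe sets tested, 4.06% were higher and 7.27% lower, or 11.3% in all. Except for the probe set of LOC4334201, those called were dark on all Bala arrays, so there the term repeats the Azucena response. Every other probe set of LOC4328727 is among those called lower, so the calls do not stand for as many genes.

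In 5 genes, by contrast, another probe set was above 200 on all Bala arrays. LOC4331035, on chromosome 2, had the brightest such probe set in Bala. Its member had 560.4, 540.9 and 867.6 in Azucena drought and 374.1, 498.3 and 467 in Azucena control, against 11, 1.2 and 2.2 in Bala drought and 3.1, 2.3 and 6.7 in Bala control. Another probe set of the same gene had 1372.1 to 1667.5 in Azucena and 1213.4 to 1656.9 in Bala (log2 0.14, SE 0.1, adjusted p = 0.29). The arrays of the cultivars overlapped in that probe set, so signal assigned to this gene was present in both. Its remaining probe sets differed by 0.76, 1.47, 2.5 and 4.25, all called higher in Azucena, so that the cultivar difference assigned to this 1 gene ran over a wide range depending on the probes. The one at 4.25 is the only other that shares the member's name stem, the part of a name before its second dot. It was dark in Bala, at 0.9 to 8.1. The probe sets above 200 on all Bala arrays have other stems.

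LOC4351341, on chromosome 12, went both ways. Its member had 751.4, 830.9 and 847.3 in Azucena drought and 575.6, 618.8 and 502.4 in Azucena control, and at most 6.4 in Bala. Another probe set had 63.5 to 189.4 in Azucena and 263.9 to 1027.2 in Bala, without overlap (log2 -2.02, SE 0.12, adjusted p = 2.6e-10). LOC4327100, on chromosome 1, had a mean of 430.2 in Azucena and 596.6 in Bala for one probe set (log2 -0.45, adjusted p = 0.0045), but was higher in Azucena for 2 others (1.87 and 2.77). LOC4331946 had 1 other probe set higher in Azucena (1.1, adjusted p = 0.00018) and 1 lower (-0.66, adjusted p = 0.021), a call that was lost without the filter on low values (0.059) or with a pseudocount of 64 (0.051). In LOC4337868 both others were higher in Azucena, 1 by a small amount with means of 476.3 in Azucena and 364.4 in Bala (0.37, adjusted p = 0.0089) and 1 by 2.27. In these genes the darkness in Bala held for the member probe set and not for all probe sets assigned to the gene. In LOC4351341 and LOC4327100 the probe set above 200 on all Bala arrays also has another name stem than the member. In LOC4331946 and LOC4337868 it shares the stem but has the s suffix, used for probes shared between transcripts. Whether these probe sets read the member's transcript was not tested.

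The same was seen at a lower level in genes with intermediate signal. The other probe set of LOC4325346 had means of 286.8 in Azucena and 122.8 in Bala (1.18). That of LOC4327927 had 335.8 and 164.4 (1.0), Azucena first. For LOC4336804 the means were 137.2 in Azucena and 82.58 in Bala (0.93), where the Bala drought arrays, at 4 to 29.9, were dark. In all, 7 of the 22 genes had another probe set above 30 on all Bala arrays. A comparison added after the values were seen used probe sets that share the stem of their name with a member, whether listed or not, although a stem need not be a single gene. Beyond those already counted, 28 such probe sets were tested, of which 20 were higher in Azucena, 3 lower and 5 not called, against 19.1% higher and 13.3% lower over all probe sets tested. Where the members of a stem have no gene in the table, these counts were 11, 1 and 4 of 16. Levels in Bala varied among these probe sets. With the stem of the LOC4344104 member, unlisted ones had means of 1349.6, 625.5 and 1688.9 in Azucena and 969.1, 295.9 and 1164.4 in Bala, and another was dim in both. With the stem of the LOC4327927 members, unlisted ones had 3338.8 and 2358.7 in Azucena (5.44 and 4.91), both against 63.38 in Bala, and a dimmer one had 41.48 against 4.917.

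Genes beside the member genes also differed between the cultivars more often than genes at large. For each member gene, the nearest gene on each side with a tested probe set and no member was taken, within 5 annotated genes, which gave 80 genes. Of these, limma called 38 higher in Azucena (47.5%) and 14 lower (17.5%), whereas over all 15606 genes 22.7% were higher and 14.3% lower, or 36.9% either way. The median difference was 0.25 (log2) in neighbours and 0.04 over all genes. A difference over 4-fold was measured in 9 neighbours toward Azucena (11.2%) and 5 toward Bala (6.25%), against 1.69% and 0.532% of all genes. The neighbours were dimmer, with a median Azucena signal of 132.4 against 196.7 for all genes, and the part of this in the counts was not tested. Without the 11 neighbours on chromosome 11, of which 7 were higher and 0 lower, 31 of 69 were higher (44.9%) and 14 lower.

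Some neighbours differed as strongly as members. LOC4341417, directly beside the member gene LOC4341416 on chromosome 6, had 906.5, 903.8 and 958.6 in Azucena drought and 421.7, 600.5 and 1153 in Azucena control, against 28.4, 24.4 and 28.2 in Bala drought and 79.2, 59 and 68.8 in Bala control (3.73, SE 0.18, adjusted p = 1.7e-11). LOC4340332, near HCT3, ran the opposite way. It had 51, 59.7 and 34.3 in Azucena drought and 74.8, 60.8 and 46.2 in Azucena control, against 1408, 1459.4 and 1319.5 in Bala drought and 1011, 1184.3 and 1207.4 in Bala control (-4.2, SE 0.13, adjusted p = 3.8e-14). HCT3 and its neighbour were thus bright in opposite cultivars. The genes on both sides of LOC4336038, namely LOC4336037 (-2.38) and LOC4336039 (-2.04), were also lower in Azucena. Beside ATG8D, LOC9268937 was higher in Azucena (2.28), as were LOC4340119 beside LOC4340120 (2.52) and LOC4325424 near LOC4325426 (4.16).

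Member genes formed 1 run of 3 or more with at most 10 annotated genes from each to the next, and 2 pairs. The run lies on chromosome 2 and holds LOC4328397, LOC4328399, LOC9266559, which is annotated as a miscellaneous RNA, and LOC4328400. LOC4328397 had 456.1, 615.3 and 358.1 in Azucena drought and 427.4, 543.5 and 224.2 in Azucena control, and LOC4328399 had 508.9, 623.6 and 350.1 in Azucena drought and 550.8, 673.2 and 413.1 in Azucena control. LOC9266559 had 272.4, 330.5 and 331.5 in Azucena drought and 398.6, 407.4 and 212 in Azucena control, and LOC4328400 had 500.9, 468.2 and 534.7 in Azucena drought and 466.2, 413.8 and 371.4 in Azucena control. No array of Bala exceeded 17.2 for any of the 4, drought and control overlapped in Azucena for the first 3, and none had a called drought response.

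LOC4328398, inside the run, was not a member but showed the same direction at a lower level, with 46.2 to 117.3 in Azucena and 1.5 to 11.9 in Bala (2.04, SE 0.19, adjusted p = 1.5e-07). The nearest measured genes outside the run had signal in both cultivars. On one side LOC4328394 had means of 57.27 in Azucena and 113.9 in Bala (-0.8, adjusted p = 0.0022), and LOC4328393 had 220.6 in Azucena and 189.6 in Bala (0.26, adjusted p = 0.19). On the other side LOC4328403 had 140.6 in Azucena and 85.37 in Bala (0.73, adjusted p = 0.0017). All 5 measured genes of the stretch were dark in Bala, and the nearest measured genes on both sides were not.

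**Figure D5:**
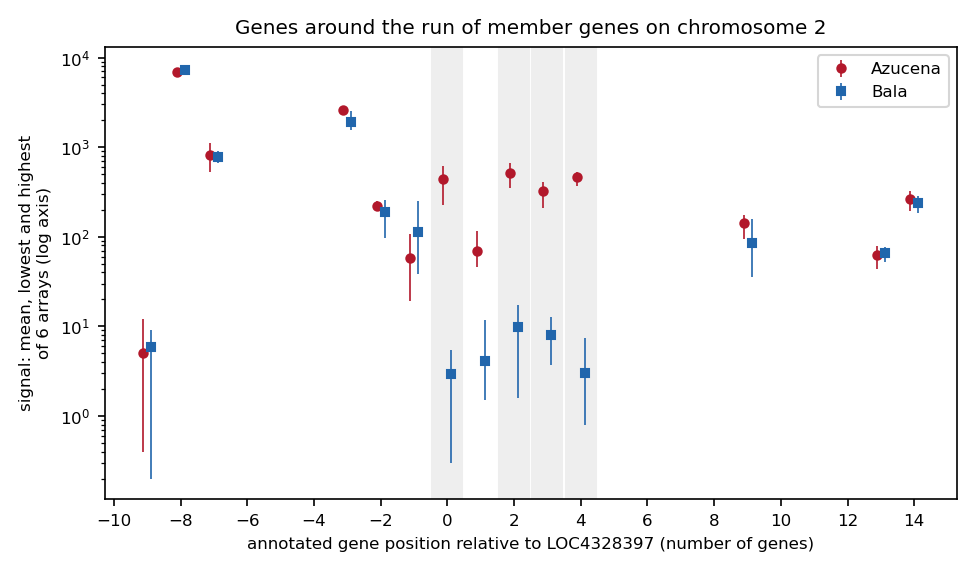
Mean signal with the lowest and highest of 6 arrays (log axis) in Azucena and in Bala, for measured genes around the run on chromosome 2, by position in the annotated gene order counted from LOC4328397. From position 0 to 4 Bala stays at or below 17.2 while Azucena is bright, except LOC4328398 at position 1 with 46.2 to 117.3.

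The pairs were LOC4343986 and LOC4343987, directly beside each other on chromosome 7, and LOC9267893 and LOC4351639 on chromosome 12. Both genes of the chromosome 7 pair fell under drought in Azucena. LOC4343986 had 592.8, 683.7 and 699.8 in Azucena drought and 1449, 1723.4 and 1593.9 in Azucena control, and LOC4343987 fell by 0.59 on the log2 scale (adjusted p = 0.0086). Of the measured genes between the chromosome 12 pair, LOC4351637 had 755.9 in Azucena and 789.2 in Bala (-0.06, adjusted p = 0.66). LOC4351633 was higher in Azucena, with 264.8 against 91.35 in Bala (1.44, adjusted p = 3.1e-07), and was at 33.2 or more on every Bala array. Darkness in Bala thus did not extend over the whole stretch there.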

How the data were processed

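Leaf RNA of 12 samples was measured on Affymetrix rice arrays, 1 array each. Per the labels' protocols, total RNA was extracted with Trizol, cleaned and biotin-labelled. The deposited values are linear signal intensities per probe set, made with MAS5 per the submitters' processing notes. Software version, scaling target and any detection call: not given in the sources used here. Array signals were used as deposited. Groups came from the cultivar and stress labels.

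The members and gene lists were chosen with earlier results of these data known. Leaving out 123 control probe sets, log2(signal + 16) of the 33476 probe sets above their array's median on at least 3 arrays entered a limma model (version 3.58.1, R 4.3.3, with lmFit and trended eBayes, 1 mean per group over all 12 arrays) for 3 contrasts, with Benjamini-Hochberg adjustment over all probe sets tested and a threshold of 0.05. The scripts were tested on simulated data holding known changes. Other software was pandas 2.3.3, numpy 2.4.6, matplotlib 3.10.9 and the data.table package (1.17.8). Precision is limited by 3 arrays a group.

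A fold bound divides the geometric mean over Azucena arrays by the geometric mean, over Bala arrays, of the higher of background and the probe set's own signal. The platform's annotation gives 1 gene for 22436 probe sets, several for 95 and none for 34850. Gene order came from RefSeq's gene list for assembly ASM3414082v1, whose link to the array's design is not given, so no coordinates are printed. For neighbours a gene's probe set with the highest mean was used. Genes were named as the 10 brightest members with a gene, the 8 largest non-overlapping rises and falls, members with other probe sets (the 12 brightest, and any whose other probe set is above 200 on all arrays), members with a symbol, and runs. Neighbours over 4-fold and second members of a gene, and the brightest unlisted member, were described after their values were seen, as were LOC4325346 and similar single examples. ATG8D was picked among synonyms. The planned families of protein names were not applied because the tables used hold no descriptions.

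For same-numbered replicates, the correlation of their deviations from the group means was between -0.1097 and 0.2183 over the group pairs. The highest values, 0.2183 and 0.1674, were between Azucena drought and Bala drought. Arrays with unlike numbers were not compared, so whether equal numbers mark a shared field block was not settled.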

Additional observations from a re-analysis of the deposited data

Results flagged for a closer look

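In other probe sets of member genes the drought response differed between Azucena and Bala for 6 of the 34 tested (17.6%), by the interaction term of the limma fit, against 11.3% of all probe sets tested. All values are log2 on the signal + 16 scale.

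The 3 other probe sets of LOC4328727 fell under drought in Azucena and stayed dark in Bala. The differences of the responses, Azucena minus Bala, were -2.49 (adjusted p = 8e-06), -4.32 (adjusted p = 2.7e-08) and -1.49 (adjusted p = 0.0017). The second of them had 42.4, 50.8 and 61.2 in Azucena drought and 1152.9, 1156.2 and 1212.5 in Azucena control, a steeper fall (-4.15) than that of the gene's member (-1.76), and at most 6.5 in Bala. The third was not called with a pseudocount of 1 (adjusted p = 0.057).

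One probe set of LOC4331035 rose in Azucena (1.51) and was dark in Bala (-0.08), a difference of 1.59 (adjusted p = 0.0012). It had 612.5, 558.6 and 698.8 in Azucena drought and 162.6, 263.1 and 208.6 in Azucena control. For LOC4346832 the difference was -1.34 (adjusted p = 0.0035), with responses of -1.24 in Azucena and 0.1 in Bala. For LOC4334201 it was 1.12 (adjusted p = 0.029), with responses of -0.43 in Azucena and -1.55 in Bala. In these last 2 genes the probe sets were dim, with group means up to 26.6 and 37.7. Where Bala is dark in both conditions, a difference of responses repeats the Azucena response, and its size depends on the pseudocount.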

How the results depend on the processing

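The number of members was 230 with a lower Azucena threshold of 100 and 41 with one of 400, against 111. It was 133 and 76 with Bala thresholds of 60 and 15, 109 after quantile normalization or scaling to a shared median (107 shared with the 111 in either case), and 111 to 117 leaving out single arrays. With a pseudocount of 1, 5 members were called higher and 9 lower under drought, against 23 and 17. The fit takes its spread from all arrays, dark Bala arrays included, whose log values spread widely at that pseudocount. With the Azucena arrays alone, an alternative added after the data were seen, 28 were higher and 18 lower with either pseudocount. Leaving out single arrays gave 14 to 24 higher and 13 to 18 lower members, 14 without the third Azucena control array, and 7321 to 9713 probe sets overall. Directly adjacent neighbours, also added after the data were seen, were higher in Azucena in 18 and lower in 7 of 36. Leaving out single arrays gave 34 to 38 neighbours higher and 12 to 16 lower, 26 other probe sets higher and 3 lower each time, and 5 to 7 interaction calls. With the replicate number as a block, 24 members were higher and 16 lower, 26 and 3 other probe sets, 38 and 15 neighbours, and 6 interactions. Whether equal numbers mark a shared field block was not settled, so this is a check only. No called direction reversed; HCT3, not called, had 0.03 and, without the first Azucena control array, -0.07. Of 19 named drought calls 9 held throughout, and of 29 calls in other probe sets 27. Of the 10 drought calls that did not hold, LOC4343987, LOC4340120, LOC4343986, LOC4331894 and 1 probe set each of LOC4350213, LOC4350020 and LOC4342731 lost it only with a pseudocount of 1, and LOC4328793 (-0.9, adjusted p = 0.011) also without 1 control or 1 drought array (adjusted p of 0.064 and 0.055); CSLE1 and LOC4349255 are given above.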
